A study of Mus musculus with 17 samples.

Results

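The cell cycle genes described here are 42 genes of the division programme, from the proliferation marker Mki67 to the D, E, A and B cyclins, their kinases and inhibitors, the replication machinery and the mitotic kinases and spindle proteins. They were taken by gene symbol from the count table of the series, which lists 22859 genes; all 42 were present, and all 42 were among the 15272 genes with enough counts to be tested. The counts came from bulk RNA sequencing of macrophages sorted from the synovium, the lining tissue of the joint, of mice labelled Fcgr2b-KO, which lack the inhibitory Fc receptor FcγRIIb. Every group carried this genotype, so none of the comparisons below is against wild-type mice.

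Macrophages were sorted into 3 subsets, named here by the marker that sets each apart. The LYVE1+ subset was LYVE1+CX3CR1+, the MHCII+ subset was MHCII+CD11c-, and the CD11c+ subset was MHCII+CD11c+. Each subset came from control mice and from mice given immune complexes (IC), that is, ovalbumin with a rabbit polyclonal antibody to it, injected intravenously 8 h before. There were 3 libraries in each group except CD11c+ cells after IC, with 2, giving 17 libraries. Adult male and female mice were used in the study, and neither age nor sex is given by group. The labels do not say whether libraries of a group came from separate mice, so the p-values below measure the spread between libraries, which may be partly technical.

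In a dividing cell, D cyclins with Cdk4 and Cdk6, followed by E cyclins with Cdk2, phosphorylate the retinoblastoma protein Rb1, which frees E2F factors to switch on genes for DNA replication and nucleotide supply. Cyclin A and B with Cdk1 then drive mitosis, in which Aurora and Polo-like kinases, the spindle checkpoint and kinesin motors separate the chromosomes, and CDK inhibitors such as Cdkn1a hold the cycle back. Tissue-resident macrophages can renew themselves by local division, while other macrophages of the joint derive from blood monocytes.

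Genes of the same phase are known to share promoter elements, and the promoters of 6 members that carry the differences below are shown for this reason, 4 of the proliferative and mitotic group and 2 of the replication group. Sequences are from RefSeq on GRCm38.p6, from 250 bases before to 50 bases after the annotated start, written 5′ to 3′ on the strand of the gene. Capitals mark every match, on either strand, to TTTGAA (the cell cycle genes homology region of late cell cycle genes), to CCAAT (the box bound by NF-Y) or to TTTNNCGC (an E2F type of site), and overlapping matches were each counted. Bub1b is on the plus strand at chr2:118597961-118598260, Cenpf on the minus strand at chr1:189688037-189688336, Mki67 on the minus strand at chr7:135716330-135716629, Ube2c on the plus strand at chr2:164769679-164769978, Mcm5 on the plus strand at chr8:75109259-75109558 and Mcm7 on the minus strand at chr5:138171834-138172133.
Bub1b: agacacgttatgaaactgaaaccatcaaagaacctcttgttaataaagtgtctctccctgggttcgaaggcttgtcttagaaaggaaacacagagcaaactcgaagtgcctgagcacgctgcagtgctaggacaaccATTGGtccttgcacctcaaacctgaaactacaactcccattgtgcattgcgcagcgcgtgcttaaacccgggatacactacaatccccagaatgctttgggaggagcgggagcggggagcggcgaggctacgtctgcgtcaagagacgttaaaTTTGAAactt
Cenpf: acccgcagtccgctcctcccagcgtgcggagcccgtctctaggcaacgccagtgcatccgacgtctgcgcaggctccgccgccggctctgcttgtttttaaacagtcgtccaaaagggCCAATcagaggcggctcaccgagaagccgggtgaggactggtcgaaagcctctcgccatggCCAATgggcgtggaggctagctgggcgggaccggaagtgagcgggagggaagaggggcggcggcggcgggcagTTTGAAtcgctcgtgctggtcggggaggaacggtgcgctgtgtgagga
Mki67: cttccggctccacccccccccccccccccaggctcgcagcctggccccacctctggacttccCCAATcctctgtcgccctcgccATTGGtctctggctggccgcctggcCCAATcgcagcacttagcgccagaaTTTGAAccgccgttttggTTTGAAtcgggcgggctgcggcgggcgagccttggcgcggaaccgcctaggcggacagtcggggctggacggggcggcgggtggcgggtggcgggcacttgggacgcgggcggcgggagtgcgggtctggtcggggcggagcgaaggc
Ube2c: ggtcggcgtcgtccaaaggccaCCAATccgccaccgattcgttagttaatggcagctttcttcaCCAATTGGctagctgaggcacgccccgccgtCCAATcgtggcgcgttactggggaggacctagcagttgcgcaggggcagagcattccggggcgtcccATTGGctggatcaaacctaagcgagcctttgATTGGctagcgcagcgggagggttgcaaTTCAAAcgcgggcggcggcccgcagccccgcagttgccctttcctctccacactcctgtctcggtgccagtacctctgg
Mcm5: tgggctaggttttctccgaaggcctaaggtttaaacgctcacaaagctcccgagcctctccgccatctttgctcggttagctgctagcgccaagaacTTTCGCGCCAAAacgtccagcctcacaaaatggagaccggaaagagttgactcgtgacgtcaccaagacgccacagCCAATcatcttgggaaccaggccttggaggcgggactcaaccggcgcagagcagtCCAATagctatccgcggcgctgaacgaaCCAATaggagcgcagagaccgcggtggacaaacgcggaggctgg
Mcm7: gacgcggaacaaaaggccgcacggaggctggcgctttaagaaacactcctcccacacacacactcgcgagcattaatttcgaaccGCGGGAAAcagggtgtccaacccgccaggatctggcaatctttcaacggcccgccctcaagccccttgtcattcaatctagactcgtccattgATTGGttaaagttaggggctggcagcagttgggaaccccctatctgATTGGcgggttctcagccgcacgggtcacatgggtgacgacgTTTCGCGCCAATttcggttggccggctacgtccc

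The promoter table held 33 of the 42 members. TTTGAA was present in 7 of the 10 promoters of mitotic kinase and spindle genes and in 2 of the 3 of mitotic cyclins and Cdk1, against 17.9% of the 32851 promoters of this length in the table. It was in 1 of the 9 promoters of replication and nucleotide genes, that of Mcm2. TTTNNCGC was in 5 of those 9, against 5.17% of all promoters, and in none of the 10 of mitotic kinase and spindle genes. The 6 printed promoters do not stand for all called members. Of the mitotic members called below, Ccnb1, Birc5 and Cenpe held no TTTGAA. Of the replication and nucleotide members called, Mcm2, Rrm1 and Rrm2 held no TTTNNCGC. The promoter of Aurkb was not among the 33. CCAAT was in 24 of the 33, against 37.4% of all. These matches describe the letters only and say nothing of what was bound in these cells.

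Library totals ran from 2301913 to 7248939 counts. Fcgr2b had reads in every library, at 69.3 to 248 CPM, which are counts per 1000000 counts of the scaled library, and since the deleted part of the gene is not given in the sources used here, these counts do not check the genotype. Itgax, which encodes CD11c, was at 275 to 443 CPM in CD11c+ libraries and at 0 to 16 CPM in all others. After IC the LYVE1+ libraries held fewer genes. At an equal depth of 2301913 counts, 11547 to 13844 genes had a count in them, against 16387 to 17409 in the LYVE1+ controls, and 39, 35 and 30 of the 42 members had any count at full depth. MHCII+ control library 3 had counts for 34 members. Of the 3 libraries of each control group, the one with replicate number 2 had the highest summed level of the 16 mitotic members, in all 3 subsets. Counting strand was not given. Exons of Ccnd1, Ccnd2, Ccnd3, Ccna2, Ccne2, Cdk2, Cdk4, Cdk6, Rb1, Mcm7, Plk1, Cdc20, Ube2c and Cdkn1a overlap genes on the opposite strand, so their counts may include reads of those genes.

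CD11c+ cells held the most transcripts of the cell cycle genes, with and without IC. Summed over the 42 members, the level was 2423, 3183 and 2376 CPM in CD11c+ controls, against 1180, 1558 and 1309 CPM in LYVE1+ controls and 1428, 1695 and 1319 CPM in MHCII+ controls. After IC it was 2394 and 2716 CPM in CD11c+ cells, 1262, 1082 and 1013 CPM in LYVE1+ cells and 1443, 1259 and 1231 CPM in MHCII+ cells. The CD11c+ libraries lay above all others in both states. The estimated level was higher in CD11c+ than in MHCII+ cells for 39 of 42 members in controls, and for 48.1% of all genes. After IC it was again higher for 39 of 42, and for 48.2% of all genes. It was higher in LYVE1+ than in CD11c+ cells for 2 of 42 members in controls and 2 after IC. Of all genes, 52.4% and 44.1% were higher in LYVE1+ cells in these states. In bulk samples, more dividing cells and more transcript in each dividing cell cannot be told apart.

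The sums were also read by role. The 10 replication and nucleotide genes summed to 322 to 359 CPM in LYVE1+ controls and 314 to 333 CPM after IC, so the groups overlapped. The 12 mitotic kinase and spindle genes went from 78.4 to 178 CPM in LYVE1+ controls to 17.6 to 49.0 CPM after IC, with no overlap. In MHCII+ cells the same 12 genes were at 92.3 to 180 CPM in controls and 20.1 to 69.6 CPM after IC, again with no overlap. In CD11c+ cells they were at 260 to 452 CPM in controls and 278 and 305 CPM after IC, within the control range. The 3 CDK inhibitors summed to 269 to 298 CPM in LYVE1+ controls and 277 to 383 CPM after IC, which overlapped, and to 270.0 to 330 CPM in MHCII+ controls and 338 to 421 CPM after IC, which did not. This rise was in Cdkn1a alone, with a mean per kilobase of exon of 61.7 CPM in MHCII+ controls and 91.6 CPM after IC. Mean Cdkn1b went from 13.1 to 11.9 CPM and Cdkn2c from 4.64 to 3.17 CPM, and none of the 3 changes was called.

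**Figure D1:**
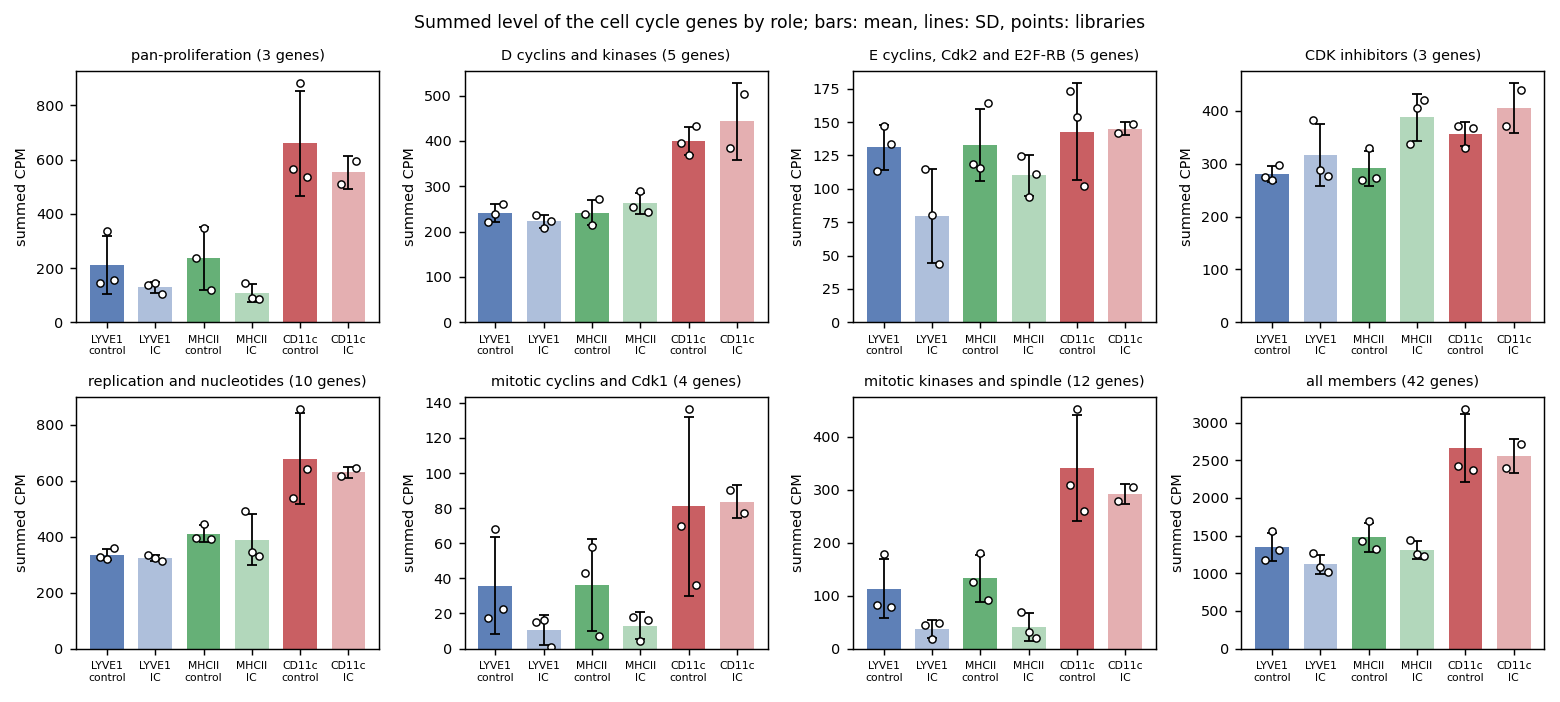
Summed level, in CPM, of the cell cycle genes of each of 7 roles and of all 42 members, by group; bars are means, lines are SD and points are the libraries. CD11c+ libraries lie highest for all 42 members together, and the 12 mitotic kinase and spindle genes lie at 17.6 to 49.0 CPM after IC in LYVE1+ cells, 20.1 to 69.6 CPM in MHCII+ cells and 278 and 305 CPM in CD11c+ cells; a different change between subsets was not shown by the test.

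Comparing LYVE1+ with CD11c+ macrophages asks how far the 2 subsets differ in their division programme. In controls, 12 of 42 members were lower in LYVE1+ cells by edgeR's quasi-likelihood test with Benjamini-Hochberg adjustment over all genes tested, and none was higher; of all genes, 15.2% were called, 7.40% lower in LYVE1+ cells. Of the 12, 7 were replication or nucleotide genes, and the others were Mki67, Ccnd1, Ccnd2, Ccne1 and Bub1b. The median log2 difference over the 42 members was -1.37, beside 0.05 over all genes. After IC, 17 members were lower in LYVE1+ cells and none higher, where 11.9% of all genes were called and 8.42% were lower. The median log2 difference was then -2.03 over the members and -0.12 over all genes. Of these 17, 7 were mitotic kinase and spindle genes and 2 were replication or nucleotide genes. Both comparisons called 7 members, which are 58.3% of the 12 and 41.2% of the 17: Mki67, Ccnd1, Ccnd2, Ccne1, Mcm5, Rrm1 and Bub1b. Of the 12 calls in controls, 7 were kept when any 1 library was left out; the count fell to 7 without LYVE1+ control library 1 or 3. Of the 17 calls after IC, 12 were kept; the count was 12 without CD11c+ IC library 2 and 11 with 1 surrogate variable in the fit.

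The CD11c+ subset was also above the MHCII+ subset. In controls, Mki67, Mcm4 and Mcm7 were higher in CD11c+ cells and no member was lower, where 8.66% of all genes were called and 3.67% were higher. Libraries of these 2 groups that share a replicate number deviated together, and with the number as a block within each treatment 7 members were called (5 with 1 block term over both treatments); Mki67, Mcm4 and Mcm7 were called in both. After IC, 7 members were higher in CD11c+ cells: Mki67, Mcm5, Mcm7, Rrm1, Ccna2, Bub1b and Cenpf, with 4.03% of all genes called and 2.29% higher. All 12 mitotic kinase and spindle genes had every CD11c+ IC library above every MHCII+ IC library, as 19.6% of all genes did, and their median log2 difference was 2.82, beside -0.03 over all genes. Mki67 was the 1 member called in both states under every left-out library. The count in controls was 1 without MHCII+ control library 3 and 7 without MHCII+ IC library 1. The count after IC was 2 without MHCII+ IC library 2 or CD11c+ IC library 2, and 13 without MHCII+ IC library 1 or LYVE1+ IC library 3, and DESeq2 called 17.

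Fewer members were called between LYVE1+ and MHCII+ macrophages. In controls no member was called, with 1.56% of all genes called; 3 members had an unadjusted p under 0.05, as 10.2% of all genes did, and DESeq2 called 1. Left-out libraries gave 0 to 2 calls, with 2 without MHCII+ control library 2 or CD11c+ control library 2. After IC, Ccnd1, Ccnd2, Ccne1, Aurkb and Bub1b were lower in LYVE1+ cells and none was higher, where 5.54% of all genes were called and 4.79% were lower. Of these, Aurkb and Bub1b were called whichever library was left out, and 2 calls were left without LYVE1+ IC library 2 or 3.

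**Figure D2:**
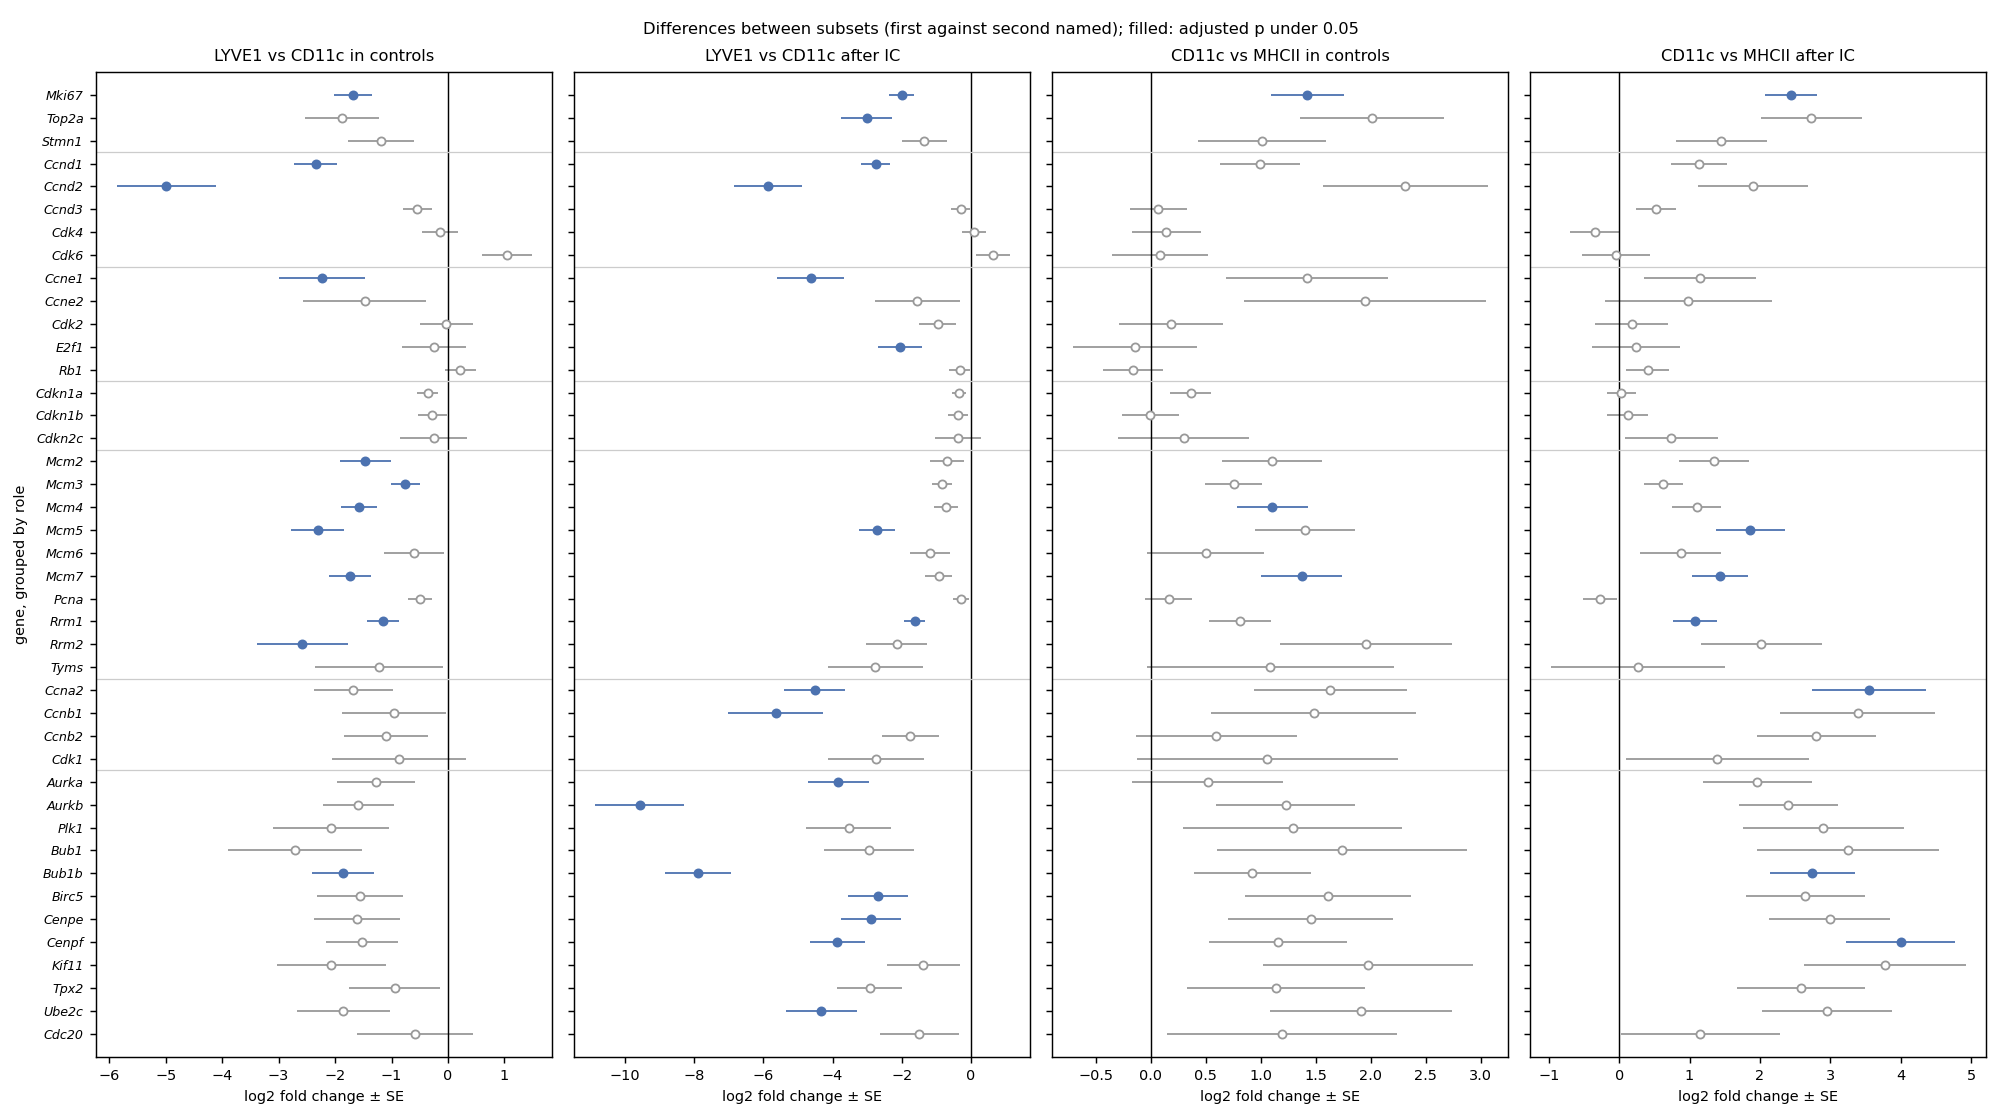
Log2 fold change (x axis, with SE) of each of the 42 members (y axis, grouped by role) between subsets, in controls and after IC; filled points passed an adjusted p of 0.05. LYVE1+ against CD11c+ cells has 12 filled points in controls and 17 after IC, all below 0, and CD11c+ against MHCII+ cells has 3 and 7, all above 0; the estimate of Aurkb after IC depends on the fit's prior count because LYVE1+ libraries held no reads of it.

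Markers of macrophages and of other cells were read beside these differences. Macrophage markers, Csf1r and Adgre1 among them, summed to 3597 to 5411 CPM in CD11c+ controls. In LYVE1+ controls they summed to 10777 to 14604 CPM, and in MHCII+ controls to 10579 to 13907 CPM. After IC the sums were 5790 and 7600 CPM in CD11c+, 11941 to 14439 CPM in LYVE1+ and 13059 to 16192 CPM in MHCII+ cells. Monocyte markers (5 genes) summed to 566 to 1184 CPM in CD11c+ controls and 748 and 998 CPM after IC, against 20.3 to 39.4 CPM in LYVE1+ controls and 235 to 526 CPM in MHCII+ controls. Nearly all of this was Ccr2, at 547 to 1152 CPM in CD11c+ controls, while Ly6c2 was at 0 to 1.91 CPM there and at 0.177 to 5.12 CPM in MHCII+ controls. Dendritic cell markers (6 genes, Flt3 and Zbtb46 among them) summed to 218 to 576 CPM in CD11c+ controls and to 236 and 347 CPM after IC, against 19.5 to 23.3 CPM in LYVE1+ controls. In MHCII+ controls they summed to 91.4 to 225 CPM, which overlapped the CD11c+ controls. Most of the sum in CD11c+ controls was Cd209a, at 135 to 452 CPM, while Flt3 was at 16.2 to 54.0 CPM and Zbtb46 at 39.0 to 44.5 CPM. After IC, Cd209a was at 80.1 and 146 CPM in CD11c+ cells, and Ccr7 at 68.6 and 98.6 CPM, against 21.1 to 50.7 CPM in controls. Neutrophil and granulocyte precursor markers summed to 86.4 to 554 CPM in CD11c+ controls, where S100a9 reached 143 CPM and Ngp 181 CPM, and to 1.65 and 2.35 CPM after IC, where Camp, Ngp, Retnlg and Ly6g had no counts. They summed to 16.4 to 320 CPM in MHCII+ controls, which overlapped the CD11c+ controls, and to 1.42 to 9.21 CPM in LYVE1+ controls. The part of macrophage, monocyte, dendritic cell and neutrophil transcripts in these differences was not tested.

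Comparing IC with control libraries within a subset asks what differed 8 h after the immune complexes were injected. The control labels read Healthy and name no injection. Effects of the injection, of ovalbumin or of the rabbit antibody alone therefore cannot be told apart from those of the complexes. In LYVE1+ cells Aurkb and Bub1b fell, and no other member was called; of all genes 0.963% were called and 0.812% fell. Of the 42 members 5 had an estimate above 0, as did 40.3% of all genes, and the median log2 change was -0.55, beside -0.14 over all genes. The groups did not overlap for 12 members that were lower after IC and for 3 that were higher, where 16.7% and 4.95% of all genes did not. DESeq2 called 6 members. Without the 3 control libraries numbered 2, the median over the members was -0.30 and 14 had an estimate above 0, and with 1 surrogate variable it was -0.26. In MHCII+ cells Cenpf was the 1 member called, lower after IC, with 0.701% of all genes called and 0.157% lower, and DESeq2 called 3. The median log2 change was -0.33 over the members and -0.03 over all genes. In CD11c+ cells no member was called, where 0.216% of all genes were; none had an unadjusted p under 0.05, as 5.21% of all genes did, DESeq2 called none, and the median log2 change was -0.03.

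Markers of other cells moved with IC as well. In LYVE1+ cells the 6 MHC class II side markers, H2-Eb1 and Cd74 among them, summed to 301 to 674 CPM in controls and 66.4 to 119 CPM after IC, and H2-Eb1, Cd74 and H2-Aa were called lower. The dendritic cell markers went from 19.5 to 23.3 CPM to 6.61 to 12 CPM in the same libraries, and neither list overlapped between control and IC. In MHCII+ cells the neutrophil and granulocyte precursor markers summed to 16.4 to 320 CPM in controls and 2.0 to 22.7 CPM after IC, and B cell markers (5 genes) to 12.2 to 42.2 CPM and 0.443 to 17.5 CPM, with overlap in both lists. The part of these transcripts in the changes of the cell cycle genes was not tested.

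**Figure D3:**
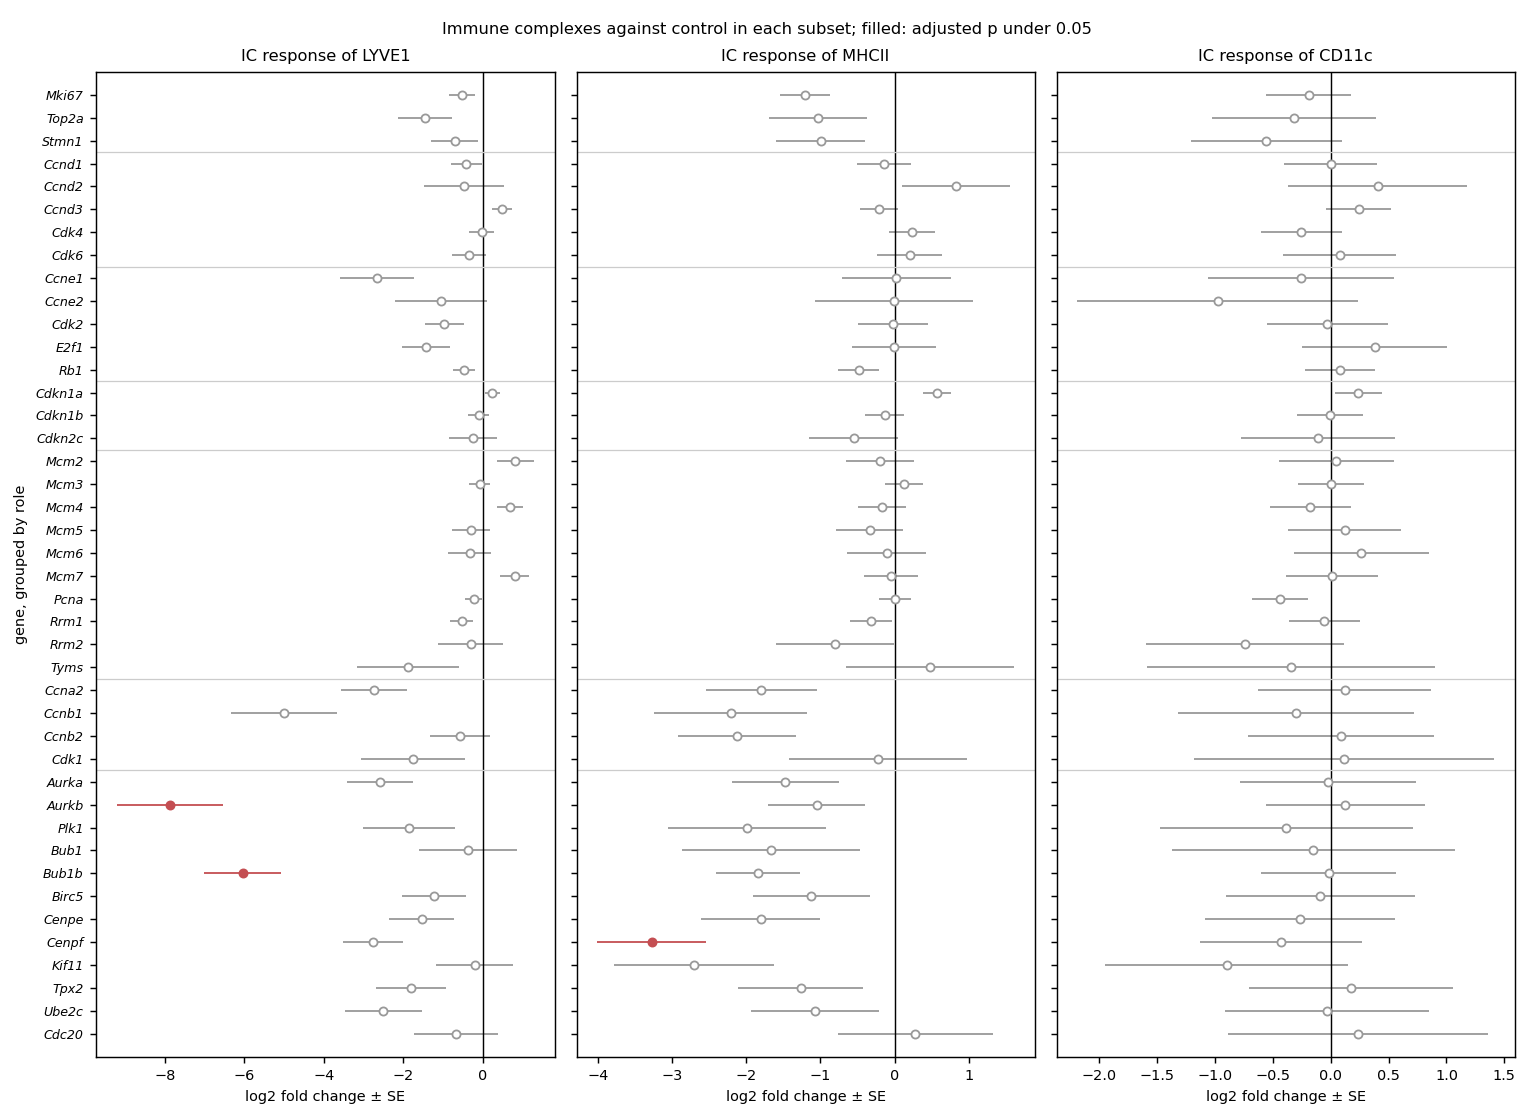
Log2 fold change (x axis, with SE) of each of the 42 members (y axis, grouped by role) after IC against controls of the same subset; filled points passed an adjusted p of 0.05. Aurkb and Bub1b in LYVE1+ cells and Cenpf in MHCII+ cells are the filled points, and the estimates in CD11c+ cells lie near 0; the estimate of Aurkb in LYVE1+ cells depends on the fit's prior count.

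Whether the change after IC differed between subsets was tested as an interaction. No member was called for LYVE1+ minus MHCII+ cells, for LYVE1+ minus CD11c+ cells or for CD11c+ minus MHCII+ cells, where 0.0262%, 0.0327% and 0% of all genes were called. An unadjusted p under 0.05 was found for 3, 7 and 2 members, and for 7.54%, 8.02% and 3.25% of all genes. DESeq2 called 0, 2 and 0. The lower levels of mitotic genes after IC in LYVE1+ and MHCII+ cells were therefore not shown to differ from the change in CD11c+ cells.

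The general proliferation genes were Mki67 (Ki-67, which coats mitotic chromosomes), Top2a (topoisomerase II alpha, which untangles replicated DNA) and Stmn1 (stathmin, which destabilises microtubules). Mki67 was at 95.4, 195 and 104 CPM in LYVE1+ controls, 163, 228 and 76.6 CPM in MHCII+ controls and 362, 536 and 357 CPM in CD11c+ controls. After IC it was at 92.2, 91 and 91.7 CPM in LYVE1+ cells, 87.1, 63.2 and 51.5 CPM in MHCII+ cells and 333 and 402 CPM in CD11c+ cells. Every CD11c+ library was above every library of the other subsets, and the 3 LYVE1+ IC libraries were nearly equal. Mki67 was lower in LYVE1+ than in CD11c+ cells in controls (log2 fold change -1.67, SE 0.34, adjusted p = 0.002) and after IC (log2 fold change -2.004, SE 0.37, adjusted p = 0.00141). It was higher in CD11c+ than in MHCII+ cells in controls (log2 fold change 1.42, SE 0.33, adjusted p = 0.0115) and after IC (log2 fold change 2.45, SE 0.37, adjusted p = 7.92e-04). Its change with IC was not called in LYVE1+ cells (log2 fold change -0.52, SE 0.33, adjusted p = 0.538) or MHCII+ cells (log2 fold change -1.21, SE 0.34, adjusted p = 0.132), though in MHCII+ cells it was called without MHCII+ control library 3 (adjusted p = 0.0174).

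Top2a was at 25, 75.4 and 34.2 CPM in LYVE1+ controls, 36.9, 68.4 and 15 CPM in MHCII+ controls and 154, 226 and 111 CPM in CD11c+ controls. After IC the levels were 22.2, 17 and 9.13 CPM, 39.9, 9.89 and 9.36 CPM and 121 and 143 CPM in the same order of subsets. LYVE1+ and CD11c+ libraries did not overlap in either state, but the difference passed the test after IC (log2 fold change -3.01, SE 0.74, adjusted p = 0.0195) and not in controls (log2 fold change -1.88, SE 0.65, adjusted p = 0.0756). The call after IC was lost with 1 surrogate variable (adjusted p = 0.159) and without LYVE1+ IC library 2 or 3 or either CD11c+ IC library (adjusted p up to 0.128). Stmn1 ranged from 4.15 to 123 CPM and was called in no comparison.

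**Figure D4:**
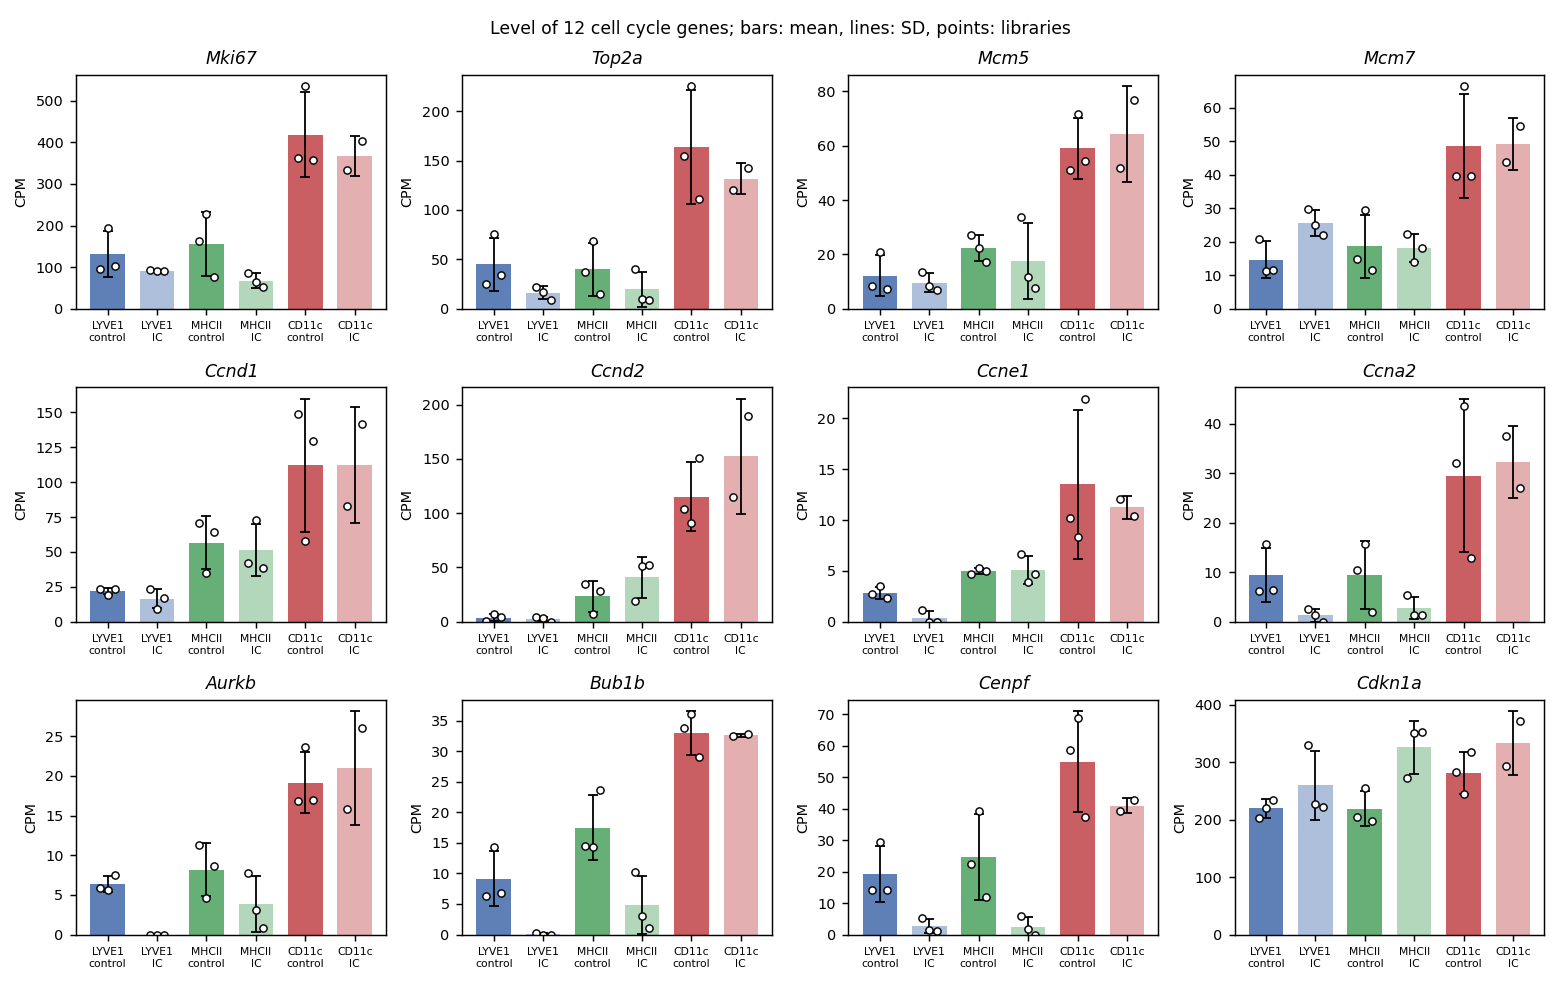
Level, in CPM, of 12 of the cell cycle genes in the 6 groups; bars are means, lines are SD and points are the libraries. Ccnd2 and Ccnd1 are highest in CD11c+ and lowest in LYVE1+ cells, Aurkb and Bub1b are at or near 0 in LYVE1+ cells after IC, and Cdkn1a is at 198 CPM or more in every library.

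D cyclins couple growth signals to the start of the cycle, and Ccnd1 and Ccnd2 differed between the subsets in both states. Ccnd1 was at 23.3, 19.2 and 23.3 CPM in LYVE1+ controls, 70.8, 34.8 and 64.2 CPM in MHCII+ controls and 149, 58.1 and 129.7 CPM in CD11c+ controls. With IC the levels were 23.1, 9.44 and 17 CPM, 42.1, 72.5 and 38.5 CPM and 82.9 and 141 CPM in that order. LYVE1+ cells lay below both other subsets in each state, while MHCII+ and CD11c+ controls overlapped. Ccnd1 was lower in LYVE1+ than in CD11c+ cells in controls (log2 fold change -2.35, SE 0.38, adjusted p = 1.44e-04) and after IC (log2 fold change -2.76, SE 0.42, adjusted p = 1.30e-04). Against MHCII+ cells it was lower after IC (log2 fold change -1.63, SE 0.39, adjusted p = 0.0145) and not called in controls (log2 fold change -1.36, SE 0.37, adjusted p = 0.0747). The call after IC was lost without LYVE1+ IC library 2 or 3 or MHCII+ IC library 2 (adjusted p up to 0.0908).

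Ccnd2 was at 0.472, 6.76 and 4.19 CPM in LYVE1+ controls, 34.6, 6.89 and 28.4 CPM in MHCII+ controls and 104, 90.7 and 151 CPM in CD11c+ controls. Following IC it was at 4.1, 3.15 and 0 CPM, 18.8, 51.3 and 52.6 CPM and 115 and 190.0 CPM. No groups of different subsets overlapped after IC, and in controls the 3 subsets were also apart. Ccnd2 was lower in LYVE1+ than in CD11c+ cells in controls (log2 fold change -4.99, SE 0.87, adjusted p = 0.00164) and after IC (log2 fold change -5.87, SE 0.97, adjusted p = 0.00174), and lower than in MHCII+ cells after IC (log2 fold change -3.97, SE 0.92, adjusted p = 0.025). The difference from MHCII+ cells after IC held in 19 of 26 alternatives and was lost, with adjusted p between 0.0524 and 0.0730, without any 1 of LYVE1+ IC libraries 1, 2 and 3 or MHCII+ IC libraries 2 and 3.

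Ccnd3 was the D cyclin that varied least, at 41.4, 39.2 and 45.2 CPM in LYVE1+ controls, 49.3, 43.6 and 82.9 CPM in MHCII+ controls and 79.1, 45.3 and 59 CPM in CD11c+ controls. In the IC libraries the levels were 62, 49.4 and 64.7 CPM, 52.8, 45.9 and 52.6 CPM and 69.3 and 75.3 CPM, and it was called in no comparison. Scaled by exon length, the share of each D cyclin in the level of the 3 shifted between subsets. Ccnd2 made up 4.16% ± 3.62 (SD, n = 3) in LYVE1+ controls, 10.8% ± 4.81 (SD, n = 3) in MHCII+ controls and 29.6% ± 7.36 (SD, n = 3) in CD11c+ controls. Ccnd3 made up 48.6% ± 0.311, 32.4% ± 8.13 and 16.6% ± 2.93 in the same groups. After IC, Ccnd2 made up 2.57% ± 2.25 (SD, n = 3) in LYVE1+ cells, 20.3% ± 8.25 (SD, n = 3) in MHCII+ cells and 33.3% ± 1.42 (SD, n = 2) in CD11c+ cells. Ccnd3 then made up 64.9% ± 7.11, 28.6% ± 7.83 and 17.8% ± 4.51 in these groups. In LYVE1+ cells its share was 48.2 to 48.9% in controls and 56.9 to 70.6% after IC, and that of Ccnd1 44.0 to 50.9% and 25.2 to 39.5%. Changes in share were not tested. The partner kinases Cdk4, at 19.5 to 63.6 CPM, and Cdk6, at 31.5 to 143 CPM, were called in no comparison.

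**Figure D5:**
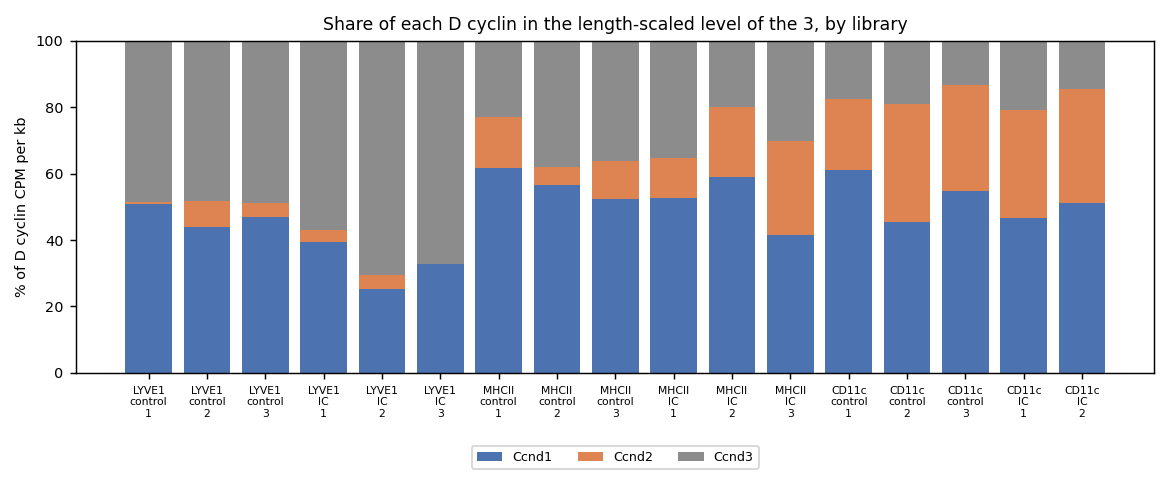
Share of Ccnd1, Ccnd2 and Ccnd3, in percent of their summed CPM per kilobase of exon (y axis), in each of the 17 libraries (x axis). Ccnd2 takes 0 to 7.76% in LYVE1+ libraries and 21.3 to 35.5% in CD11c+ libraries.

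At the step from G1 to S phase, Ccne1 (cyclin E1, the partner of Cdk2) was at 2.68, 3.51 and 2.37 CPM in LYVE1+ controls, 4.69, 5.3 and 5.02 CPM in MHCII+ controls and 10.2, 8.36 and 21.9 CPM in CD11c+ controls. The levels after IC were 1.17, 0 and 0 CPM in LYVE1+ cells, from 4 counts in all, 6.65, 3.91 and 4.68 CPM in MHCII+ cells and 12 and 10.4 CPM in CD11c+ cells. The 3 subsets did not overlap in either state. Ccne1 was lower in LYVE1+ than in CD11c+ cells in controls (log2 fold change -2.23, SE 0.76, adjusted p = 0.0486) and after IC (log2 fold change -4.64, SE 0.97, adjusted p = 0.00227), and lower than in MHCII+ cells after IC (log2 fold change -3.49, SE 0.93, adjusted p = 0.0262). The call in controls held in 8 of 26 alternatives and was lost without each of 12 libraries, with adjusted p up to 0.211 without CD11c+ control library 3. That against MHCII+ cells was lost without LYVE1+ IC library 2 or 3, MHCII+ IC library 1 or 3 or CD11c+ IC library 1 (adjusted p up to 0.0715).

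E2f1 (the factor that Rb1 restrains) was at 18.7, 21.6 and 20.1 CPM in LYVE1+ controls and 12.3, 9.44 and 0 CPM after IC. In MHCII+ cells it was at 25.6, 17.5 and 36.4 CPM in controls and 25.5, 20.6 and 32.7 CPM after IC, and in CD11c+ cells at 30.8, 24.9 and 15.5 CPM and 25 and 37.2 CPM. It was lower in LYVE1+ than in CD11c+ cells after IC (log2 fold change -2.06, SE 0.65, adjusted p = 0.0427), a call that held in 12 of 26 alternatives and was lost without CD11c+ IC library 2 (adjusted p = 0.304). The fall with IC in LYVE1+ cells was not called (log2 fold change -1.43, SE 0.60, adjusted p = 0.273), although the groups did not overlap. Cdk2, at 2.07 to 31.3 CPM, Ccne2, at 0 to 26.9 CPM, and Rb1, at 36.5 to 98.0 CPM, were called in no comparison.

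CDK inhibitors did not pass the test in any comparison. Cdkn1a (p21, which a p53 response raises) had the highest level per kilobase of exon among the inhibitors, the D cyclins, Cdk4 and Cdk6 in each group, with 61.7 ± 4.44 CPM per kb (SD, n = 3) in LYVE1+ controls. It was at 203, 220.3 and 235 CPM in LYVE1+ controls and 329, 228 and 222 CPM after IC, and at 284, 244 and 317 CPM in CD11c+ controls and 294 and 372 CPM after IC. In MHCII+ cells it was at 205, 255 and 198 CPM in controls and 272, 351 and 353 CPM after IC, where the groups did not overlap and the estimate was not called (log2 fold change 0.57, SE 0.19, adjusted p = 0.21). Cdkn1b (p27, which binds Cdk2) was at 60.5, 36.8 and 48.1 CPM in LYVE1+ controls and 40.7, 56 and 39.4 CPM after IC. It was at 49.3, 58.3 and 70.9 CPM in MHCII+ controls and 54.8, 43.5 and 64.1 CPM after IC, and at 73.8, 56.8 and 46.1 CPM in CD11c+ controls and 64.2 and 53.3 CPM after IC, and overlapped in every comparison. Cdkn2c (p18, which binds Cdk4 and Cdk6) was at 11, 12.2 and 15.6 CPM in LYVE1+ controls, 15.8, 16.6 and 5.02 CPM in MHCII+ controls and 13.4, 27.9 and 4.54 CPM in CD11c+ controls. After IC its levels were 13.2, 5.04 and 14.9 CPM, 10.6, 11.3 and 3.58 CPM and 14.4 and 14.3 CPM.

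Among replication genes, the subunits of the MCM helicase, which unwinds DNA at replication forks, were higher in CD11c+ than in LYVE1+ controls for 5 of the 6 subunits listed, and none was called with IC. Mcm5 was at 8.5, 20.8 and 7.26 CPM in LYVE1+ controls, 27.1, 22.4 and 17.4 CPM in MHCII+ controls and 51, 71.9 and 54.5 CPM in CD11c+ controls. After IC it was at 13.5, 8.5 and 7.05 CPM, 33.7, 11.5 and 7.71 CPM and 52 and 77 CPM. Each CD11c+ library was above every other library. It was lower in LYVE1+ than in CD11c+ cells in controls (log2 fold change -2.30, SE 0.47, adjusted p = 0.0011) and after IC (log2 fold change -2.72, SE 0.51, adjusted p = 8.48e-04), and higher in CD11c+ than in MHCII+ cells after IC (log2 fold change 1.86, SE 0.49, adjusted p = 0.029). The last call was lost without MHCII+ IC library 2 or 3 or either CD11c+ IC library, with adjusted p up to 0.416.

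Mcm7 was at 20.9, 11.4 and 11.6 CPM in LYVE1+ controls, 14.9, 29.3 and 11.7 CPM in MHCII+ controls and 39.6, 66.5 and 39.7 CPM in CD11c+ controls. With IC the levels were 29.8, 24.9 and 22 CPM, 22.4, 14 and 18.2 CPM and 43.6 and 54.6 CPM. In LYVE1+ cells it was higher in every IC library than in every control library, but the change was not called (log2 fold change 0.80, SE 0.37, adjusted p = 0.328). Mcm7 was lower in LYVE1+ than in CD11c+ controls (log2 fold change -1.73, SE 0.37, adjusted p = 0.00186), and higher in CD11c+ than in MHCII+ cells in controls (log2 fold change 1.37, SE 0.37, adjusted p = 0.0193) and after IC (log2 fold change 1.43, SE 0.40, adjusted p = 0.0405). In LYVE1+ against CD11c+ cells after IC the difference was not called (log2 fold change -0.94, SE 0.40, adjusted p = 0.135). The calls against MHCII+ cells were lost in controls without MHCII+ control library 1 or 3 or CD11c+ control library 2 (adjusted p up to 0.101), and after IC without MHCII+ IC library 2 or 3 or either CD11c+ IC library (adjusted p up to 0.480).

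Mcm4 was at 15.6, 16.8 and 24.7 CPM in LYVE1+ controls, 35.6, 26.9 and 16.7 CPM in MHCII+ controls and 55.1, 61.5 and 54.5 CPM in CD11c+ controls, and at 23.4, 28 and 41.1 CPM, 29.9, 23.7 and 16.8 CPM and 48.6 and 52.4 CPM after IC. It differed between LYVE1+ and CD11c+ controls (log2 fold change -1.58, SE 0.32, adjusted p = 0.00118) and between CD11c+ and MHCII+ controls (log2 fold change 1.10, SE 0.32, adjusted p = 0.0305). The latter was lost without MHCII+ control library 2 or 3 or any CD11c+ control library (adjusted p up to 0.152). Mcm2 was at 15, 15.7 and 17.2 CPM in LYVE1+ controls, 22, 15.9 and 23.7 CPM in MHCII+ controls and 39.99, 52 and 39.7 CPM in CD11c+ controls, and at 26.9, 32.1 and 25.7 CPM, 39.5, 6.59 and 7.15 CPM and 42.9 and 48 CPM after IC. Like Mcm7, Mcm2 was above its LYVE1+ control range in all 3 LYVE1+ IC libraries, without passing the test (log2 fold change 0.83, SE 0.46, adjusted p = 0.44). It was lower in LYVE1+ than in CD11c+ controls (log2 fold change -1.46, SE 0.46, adjusted p = 0.0315), a call that was lost without any 1 of the 6 libraries compared (adjusted p up to 0.0979) and without the 3 control libraries numbered 2 (adjusted p = 0.148). Mcm3 was at 62.5, 55.7 and 59.3 CPM in LYVE1+ controls, 63.6, 54.4 and 60.2 CPM in MHCII+ controls and 71.3, 96.6 and 133 CPM in CD11c+ controls, and at 56.2, 52.2 and 60.2 CPM, 97.8, 51.5 and 44.6 CPM and 104 and 95.8 CPM after IC. Its call between LYVE1+ and CD11c+ controls was at the threshold (log2 fold change -0.75, SE 0.26, adjusted p = 0.0497) and held in 15 of 26 alternatives, with an adjusted p of 0.285 without CD11c+ control library 3. Mcm6, at 16.2 to 126 CPM, and the sliding clamp Pcna, at 69.7 to 215 CPM, were called in no comparison.

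The subunits of ribonucleotide reductase, which makes deoxynucleotides, were both lower in LYVE1+ than in CD11c+ controls. Rrm1 was at 35, 31.6 and 31.4 CPM in LYVE1+ controls, 33.5, 46.5 and 44.5 CPM in MHCII+ controls and 64, 91.8 and 62 CPM in CD11c+ controls, and at 31.9, 17 and 18.7 CPM, 40.6, 35.4 and 23.4 CPM and 69.9 and 70.2 CPM after IC. All CD11c+ libraries were above all others. Rrm1 was lower in LYVE1+ than in CD11c+ cells in controls (log2 fold change -1.15, SE 0.28, adjusted p = 0.00546) and after IC (log2 fold change -1.63, SE 0.31, adjusted p = 9.47e-04), and higher in CD11c+ than in MHCII+ cells after IC (log2 fold change 1.08, SE 0.31, adjusted p = 0.0466). The call against MHCII+ cells held in 13 of 26 alternatives and had an adjusted p of 0.364 without CD11c+ IC library 2, and that in LYVE1+ against CD11c+ controls without the 3 control libraries numbered 2 (adjusted p = 0.0791). Rrm2, the subunit that rises in S phase, was at 5.83, 10.5 and 5.02 CPM in LYVE1+ controls, 17.7, 14.3 and 0 CPM in MHCII+ controls and 26.4, 59.1 and 41.2 CPM in CD11c+ controls, and at 2.63, 9.44 and 4.98 CPM, 4.43, 3.71 and 10.7 CPM and 27.6 and 22.9 CPM after IC. It was lower in LYVE1+ than in CD11c+ controls (log2 fold change -2.58, SE 0.81, adjusted p = 0.037), a call that held in 15 of 26 alternatives, with an adjusted p of 0.145 without LYVE1+ control library 3. Tyms (thymidylate synthase), at 0 to 17.6 CPM, was called in no comparison.

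The mitotic cyclins and Cdk1 were at 43.7 CPM or less in every library. Ccna2 (cyclin A2) was at 6.14, 15.7 and 6.42 CPM in LYVE1+ controls, 10.5, 15.7 and 2.01 CPM in MHCII+ controls and 32.1, 43.7 and 12.9 CPM in CD11c+ controls. Following IC it was at 2.63, 1.26 and 0 CPM, 5.32, 1.44 and 1.38 CPM and 37.5 and 27.1 CPM. After IC the CD11c+ libraries lay apart from both other subsets, while in controls the subsets overlapped. Ccna2 was lower in LYVE1+ than in CD11c+ cells after IC (log2 fold change -4.52, SE 0.88, adjusted p = 0.00123) and higher in CD11c+ than in MHCII+ cells after IC (log2 fold change 3.55, SE 0.80, adjusted p = 0.0107). The second call was lost without MHCII+ IC library 2 or 3 or CD11c+ IC library 1 (adjusted p up to 0.0695).

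Ccnb1 (cyclin B1) was at 3.62, 17.8 and 3.07 CPM in LYVE1+ controls, 5.33, 11 and 0 CPM in MHCII+ controls and 8.93, 27.3 and 10.2 CPM in CD11c+ controls. In the IC libraries the levels were 0.293, 0 and 0.415 CPM, from 2 counts in all, 2.0, 0.206 and 1.38 CPM and 12.8 and 12.5 CPM. Summed over libraries, it was 56.9-fold lower in LYVE1+ than in CD11c+ cells after IC (exact 95% counting interval 15.5 to 474; adjusted p = 0.00743), and with 1 surrogate variable the call was lost (adjusted p = 0.0627). Against its own controls the LYVE1+ ratio was 29.0-fold lower (interval 7.85 to 243) and was not called (adjusted p = 0.0676). Such intervals cover counting error only. Cdk1, the kinase that these cyclins activate, was at 3.46, 15.1 and 3.63 CPM in LYVE1+ controls, 7.04, 11.7 and 0 CPM in MHCII+ controls and 11.5, 26.7 and 1.13 CPM in CD11c+ controls. The levels after IC were 0.585, 5.67 and 0 CPM, 7.54, 1.24 and 7.71 CPM and 15.3 and 13.6 CPM, its libraries varied widely within groups, and it was called in no comparison; nor was Ccnb2, at 0.415 to 38.8 CPM.

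The mitotic kinases and spindle proteins held the 3 members that changed with IC. Aurkb (Aurora B, which corrects the attachment of chromosomes to the spindle) was at 5.83, 5.68 and 7.54 CPM in LYVE1+ controls, and had no counts in any of the 3 LYVE1+ libraries after IC. Against a floor of 3 counts per library, 1.02 CPM on average, it was at least 6.21-fold lower after IC (edgeR, adjusted p = 0.00509). It was at 11.3, 4.59 and 8.69 CPM in MHCII+ controls and 7.76, 3.09 and 0.826 CPM after IC, and at 16.8, 23.6 and 17 CPM in CD11c+ controls and 15.9 and 26 CPM after IC. Those pairs of groups overlapped, and neither change was called. After IC, Aurkb was at least 20.5-fold lower in LYVE1+ than in CD11c+ cells (adjusted p = 2.95e-05) and at least 3.81-fold lower than in MHCII+ cells (adjusted p = 0.00323). All 25 alternatives called the fall in LYVE1+ cells, with adjusted p from 0.000287 to 0.0460.

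Bub1b (BubR1, of the spindle checkpoint, which delays chromosome separation) was at 6.3, 14.3 and 6.84 CPM in LYVE1+ controls and 0.293, 0 and 0 CPM after IC, from 142 counts and 1 count in all. The ratio was 74.3-fold lower after IC, with an exact 95% counting interval of 13.1 to 2954 (edgeR, adjusted p = 0.00221). In MHCII+ cells it was at 14.5, 14.3 and 23.7 CPM in controls and 10.2, 3.09 and 1.1 CPM after IC, lower in every IC library but not called (log2 fold change -1.84, SE 0.57, adjusted p = 0.171). In CD11c+ cells it was at 33.8, 36 and 29.1 CPM in controls and 32.5 and 32.8 CPM after IC, which did not separate. Bub1b was lower in LYVE1+ than in CD11c+ controls (log2 fold change -1.87, SE 0.55, adjusted p = 0.0211), a call that was lost without LYVE1+ control library 1 or 3 or CD11c+ control library 1 (adjusted p up to 0.103). After IC it was 294-fold lower in LYVE1+ than in CD11c+ cells (interval 52.4 to 11630.2, adjusted p = 4.32e-06) and 45.0-fold lower than in MHCII+ cells (interval 7.80 to 1806, adjusted p = 0.00301). It was higher in CD11c+ than in MHCII+ cells after IC (log2 fold change 2.74, SE 0.61, adjusted p = 0.00827), which was lost without CD11c+ IC library 2 (adjusted p = 0.0780) or MHCII+ IC library 2 (adjusted p = 0.0552). Both falls in LYVE1+ cells stand beside the lower number of genes detected in those libraries, which equal depth did not remove and whose part in them was not tested.

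Cenpf (a kinetochore protein that peaks in late cell cycle) was at 22.4, 39.2 and 12 CPM in MHCII+ controls and 5.76, 1.65 and 0 CPM after IC, with every IC library below every control. The change was called (log2 fold change -3.27, SE 0.73, adjusted p = 0.0482) and was at the threshold: it held in 9 of 25 alternatives, was lost without any 1 of 13 libraries, and had an adjusted p of 0.210 without MHCII+ IC library 2. In LYVE1+ cells Cenpf was at 14, 29.5 and 14.2 CPM in controls and 5.27, 1.57 and 1.24 CPM after IC, likewise apart but not called (log2 fold change -2.76, SE 0.75, adjusted p = 0.0879). In CD11c+ cells it was at 58.7, 68.7 and 37.4 CPM and 39.4 and 42.7 CPM, with the IC libraries inside the control range. After IC it was lower in LYVE1+ than in CD11c+ cells (log2 fold change -3.86, SE 0.79, adjusted p = 0.00323) and higher in CD11c+ than in MHCII+ cells (log2 fold change 4.0, SE 0.78, adjusted p = 0.00492). The second call was lost without CD11c+ IC library 2 (adjusted p = 0.0558).

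A further 4 genes of this role were lower in LYVE1+ than in CD11c+ cells after IC. Aurka (Aurora A, which matures the spindle poles) was at 1.76, 0.629 and 0 CPM in LYVE1+ and 9.26 and 15.6 CPM in CD11c+ cells after IC (log2 fold change -3.83, SE 0.87, adjusted p = 0.00435). Its other levels were 3.46, 6.76 and 5.44 CPM in LYVE1+ controls, 4.91, 8.66 and 13 CPM in MHCII+ controls, 4.66, 2.06 and 2.75 CPM in MHCII+ cells after IC and 13, 16.7 and 7.94 CPM in CD11c+ controls. Each LYVE1+ IC library was below every library of the other groups. Ube2c (the ubiquitin-conjugating enzyme of the anaphase-promoting complex) was at 1.46, 1.26 and 0 CPM in LYVE1+ and 19.98 and 19.6 CPM in CD11c+ cells after IC (log2 fold change -4.33, SE 1.03, adjusted p = 0.00624). Its other levels were 1.26, 12.7 and 3.21 CPM in LYVE1+ controls, 3.2, 9.37 and 3.34 CPM in MHCII+ controls, 2.22, 0.618 and 4.95 CPM in MHCII+ cells after IC and 17.2, 35.1 and 7.94 CPM in CD11c+ controls. In controls it was highest in library 2 of each subset.

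Birc5 (survivin, a partner of Aurora B) was at 1.76, 6.29 and 2.07 CPM in LYVE1+ and 23.8 and 20.7 CPM in CD11c+ cells after IC (log2 fold change -2.70, SE 0.87, adjusted p = 0.044). It was at 8.19, 12.7 and 3.49 CPM in LYVE1+ controls, 5.33, 16.6 and 0.669 CPM in MHCII+ controls, 3.33, 4.74 and 2.48 CPM in MHCII+ cells after IC and 22.8, 40.9 and 6.81 CPM in CD11c+ controls. Cenpe (a kinesin of the kinetochore) was at 0, 3.15 and 12 CPM in LYVE1+ and 33.6 and 37.9 CPM in CD11c+ cells after IC (log2 fold change -2.89, SE 0.88, adjusted p = 0.0417). It was at 11, 18.9 and 12.4 CPM in LYVE1+ controls, 10.02, 26 and 10.7 CPM in MHCII+ controls, 8.2, 3.91 and 1.1 CPM in MHCII+ cells after IC and 29.1, 54.1 and 45.8 CPM in CD11c+ controls. The calls of Birc5 and Cenpe held least often of the 4, in 15 and 13 of 26 alternatives, and without CD11c+ IC library 2 their adjusted p-values were 0.144 and 0.215. That of Aurka was also lost without this library (adjusted p = 0.0734), and that of Ube2c with 1 surrogate variable (adjusted p = 0.0605). Plk1, Bub1, Kif11, Tpx2 and Cdc20 were called in no comparison, with levels from 0 to 80.2 CPM.

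Genes of the same processes outside the 42 were read in the same fit. Of 50 other mitosis genes, 7 were lower and 1, Cdc25b, was higher in LYVE1+ than in CD11c+ controls, and 12 were lower after IC; 2 and 7 were higher in CD11c+ than in MHCII+ cells in the same states. Of all genes, 7.40% were lower and 7.83% higher in LYVE1+ than in CD11c+ controls and 8.42% were lower after IC, and 3.67% and 2.29% were higher in CD11c+ than in MHCII+ cells. Racgap1, which positions the cleavage furrow, was at 8.66, 22.4 and 8.93 CPM in LYVE1+ controls and 75.3, 120.4 and 97.2 CPM in CD11c+ controls (log2 fold change -2.90, SE 0.54, adjusted p = 7.82e-04). Kif23, its motor partner at the midzone, was at 38.9, 49.7 and 46.6 CPM in LYVE1+ controls and 12, 5.35 and 17 CPM after IC, and fell (log2 fold change -1.99, SE 0.35, adjusted p = 0.00671). In MHCII+ cells Kif23 was at 66.5, 53 and 53.8 CPM in controls and 30.4, 19.4 and 12.1 CPM after IC, and fell as well (log2 fold change -1.48, SE 0.34, adjusted p = 0.0335). It was the 1 gene of this list called after IC in either subset, and its libraries did not overlap in LYVE1+ or in MHCII+ cells. The median log2 change with IC over these 50 genes was -0.87 in LYVE1+, -0.96 in MHCII+ and -0.34 in CD11c+ cells.

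Of 35 other replication genes, 6 were lower in LYVE1+ than in CD11c+ controls and 9 after IC, where 7.40% and 8.42% of all genes were lower, and none was higher. Tk1 (thymidine kinase) was at 20.5, 26.5 and 14 CPM in LYVE1+ controls, 16.8, 23.9 and 24.4 CPM in MHCII+ controls and 64.9, 73.7 and 107 CPM in CD11c+ controls, and was lower in LYVE1+ (log2 fold change -2.02, SE 0.32, adjusted p = 7.74e-05) and higher in CD11c+ than in MHCII+ controls (log2 fold change 1.91, SE 0.32, adjusted p = 3.20e-04). Cdc6, which loads the MCM helicase, was at 1.57, 4.05 and 1.95 CPM in LYVE1+ controls and had no counts in the 3 LYVE1+ libraries after IC (adjusted p = 0.0461). Of the 58 histone genes tested, taken by symbol and mostly of the kind made in S phase, 20 were lower in LYVE1+ than in CD11c+ controls and 16 after IC, and 4 and 10 were higher in CD11c+ than in MHCII+ cells, against the same 7.40% and 8.42% lower and 3.67% and 2.29% higher of all genes. H4c4 was at 52, 47 and 51.5 CPM in LYVE1+ controls, 59.3, 74.9 and 27.8 CPM in MHCII+ controls and 97, 175 and 170.2 CPM in CD11c+ controls, with the 3 CD11c+ controls above the other controls and lower levels in LYVE1+ than in CD11c+ cells (log2 fold change -1.55, SE 0.30, adjusted p = 6.27e-04). Histone genes are near copies of each other, so the split of reads among them is uncertain.

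Of 24 tested genes for other E2F, RB family and CDK inhibitor proteins, 1 was higher and 1 lower in LYVE1+ than in CD11c+ controls, where 15.2% of all genes were called, and none was called after IC within a subset. The 1 higher was Fbxw7, which marks cyclin E for degradation, at 141, 132 and 120.1 CPM in LYVE1+ controls and 59.1, 51.6 and 58.2 CPM in CD11c+ controls (log2 fold change 1.22, SE 0.19, adjusted p = 6.20e-05). Of 19 tested targets of p53, which raises Cdkn1a, none was called with IC in any subset, and their median log2 changes were 0.01, 0.21 and 0.11 in LYVE1+, MHCII+ and CD11c+ cells. Between LYVE1+ and CD11c+ controls 2 were higher and 4 lower, against 7.83% and 7.40% of all genes, so the list did not move one way.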

How the data were processed

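Counts per gene were deposited as whole numbers by the authors, who trimmed reads with Trim Galore, checked them with FastQC, aligned them to mm10 with HISAT2 and counted them with featureCounts. Versions, annotation and strand setting are not given in the sources used here. The authors used DESeq2 for their tests and the sva package against batch effects. Libraries were made from total RNA with a SMARTer stranded pico input kit, a random-primed kit for low input. The count table had 1 further column that no label names, which summed to 0 and was not used.

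The 42 members and all gene lists were chosen with earlier results of these data known. Counts were tested with edgeR 4.0.16 (robust quasi-likelihood fit, TMM scaling, R 4.3.3) over all 17 libraries with 1 mean per group, on genes passing the edgeR filter at a minimum count of 10, with Benjamini-Hochberg adjustment over the 15272 genes tested in each of 12 contrasts; "called" means an adjusted p under 0.05. The biological coefficient of variation was 45.1%. CPM values are counts scaled by the TMM-adjusted library total. Within groups, libraries differed beyond counting noise (chi-square over its degrees of freedom at least 6.77), which does not show that they came from separate mice. Each library was counted once. Members called in at least 1 contrast, Mki67, Top2a, Cdk1, the D cyclins and the CDK inhibitors are given in every library, and other lists by their smallest p among called genes. Ccne1, Aurkb and other low genes rest on few reads, and intervals on counts cover counting error only.

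Replicate numbers are shared between groups in the labels. Deviations of same-numbered libraries correlated at 0.147, 0.377 and 0.109 between MHCII+ and CD11c+ controls, every pair over 0.1, which meets the criterion for pairing by number; no other pair of groups met it. The values given are from the fit without a block, with the blocked counts beside the comparison of these groups. Alternatives were DESeq2 1.42.0, its size factors, no filter, 1 surrogate variable from sva 3.50.0, equal depth, a gene length offset, replicate blocks and each library left out. The scripts were tested on simulated data.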

Additional observations from a re-analysis of the deposited data

How the results depend on the processing

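Estimates that were not called were not checked for direction. No log2 difference of a member called in the main fit changed direction under the alternatives. Small medians did: with 1 surrogate variable the median over all genes moved from -0.14 to 0.01 for IC in LYVE1+ cells and from -0.12 to 0.02 for LYVE1+ against CD11c+ cells after IC, and that over the members from -0.22 to 0.07 for the interaction of LYVE1+ minus MHCII+ cells, with 25 of 42 estimates above 0 in place of 17. DESeq2 size factors moved the median over all genes from 0.05 to -0.01 for LYVE1+ against CD11c+ controls. Of the counts of members called, 251 stayed within 1.5 times and 58 did not. With DESeq2, 6 members were called for IC in LYVE1+ cells, 3 for IC in MHCII+ cells, 1 for LYVE1+ against MHCII+ controls, 7 for CD11c+ against MHCII+ controls, 17 for CD11c+ against MHCII+ cells after IC, and 2 for the change with IC in LYVE1+ minus CD11c+ cells. Without a filter on low counts these were 0 for IC in MHCII+ cells and 2 for that interaction, and with a gene length offset 0 and 1. Equal depth gave 5 for CD11c+ against MHCII+ controls, and 1 surrogate variable gave 11 for LYVE1+ against CD11c+ cells after IC. Without the 3 control libraries numbered 2, an alternative chosen after seeing the data, there were 0 for IC in MHCII+ cells, 3 for LYVE1+ against MHCII+ controls and 1 for the interaction of LYVE1+ minus CD11c+ cells. The cause of these changes was not tested.

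With the replicate block, 4 members were called for IC in LYVE1+ cells, 2 for IC in MHCII+ cells, 5 for CD11c+ against MHCII+ controls and 1 for the interaction of LYVE1+ minus CD11c+ cells. With the replicate block within treatment, 1 was called for LYVE1+ against MHCII+ controls, 7 for CD11c+ against MHCII+ controls and 1 for that interaction. Apart from CD11c+ and MHCII+ controls, no pair of groups met the criterion for pairing. Whether same-numbered libraries of the other groups share a source is not given in the labels. Single calls were also lost under the block, among them Ccnd2 in LYVE1+ against MHCII+ cells after IC with the replicate block (adjusted p = 0.0547) and with that within treatment (adjusted p = 0.0857).

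With 1 library left out, the count ranged from 2 to 3 for IC in LYVE1+ cells, 0 to 3 in MHCII+ cells and 0 to 0 in CD11c+ cells. In controls it ranged from 0 to 2 for LYVE1+ against MHCII+, 7 to 13 for LYVE1+ against CD11c+ and 1 to 7 for CD11c+ against MHCII+ cells. After IC it ranged from 2 to 5, 12 to 19 and 2 to 13 in the same order. For the interactions it ranged from 0 to 0 for LYVE1+ minus MHCII+, 0 to 2 for LYVE1+ minus CD11c+ and 0 to 0 for CD11c+ minus MHCII+ cells. Leaving out a library of CD11c+ cells after IC left 1, assumed to vary like the other groups.

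DESeq2 size factors moved the median log2 change of all genes with IC in LYVE1+ cells from -0.14 to -0.05; 29 of 110 genes called were then higher, against 23 of 147. Few reads in LYVE1+ IC libraries, 1 in all for Bub1b and 2 for Ccnb1, limit what can be said of these genes and of Ccne1 beyond that they were low.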
